A study of Homo sapiens with 47 samples.

Results

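The genes described here are the protein-coding genes whose symbol begins with PSM, then a letter from A to G and a digit, in both RNA tables. There are 50 of them among 62703 genes, of which 20036 are protein coding. By role, 8 belong to the alpha ring of the core particle, 7 to its constitutive beta ring, and 4 are the inducible or tissue-restricted beta subunits. Another 6 are the ATPases of the regulatory particle, 11 its other subunits and 3 its assembly chaperones. The remaining proteasome genes are 5 activators or inhibitors and 4 assembly chaperones of the core particle. The rule also takes PSMC3IP, a cofactor of meiotic recombination, and PSME3IP1, a partner of PSME3, which are not proteasome subunits, so 48 members are proteasome genes. In the RNA, 48 members reached the filter of at least 10 normalised reads in at least 3 libraries. PSMA8, a testis form of an alpha subunit, had 0 reads in the 9 RNA libraries, and PSMB11, the beta subunit of the thymus, stayed under the filter.

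The proteasome degrades proteins that carry ubiquitin chains. Its core particle is a barrel of outer alpha rings and inner beta rings, with the cutting sites on the beta subunits PSMB5, PSMB6 and PSMB7. A regulatory particle of ATPases and other subunits binds ubiquitin, removes it and unfolds the substrate. When proteasome activity is short, the transcription factor NFE2L1 with small MAF proteins is known to raise most subunit genes together through antioxidant response elements.

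The study used PC3, a human prostate cancer line from a bone metastasis, and asked how serotonin and its attachment to histone H3 bear on lineage plasticity. DDC is the decarboxylase that makes serotonin, SLC6A4 is the serotonin transporter, and TGM2 is the transglutaminase that attaches serotonin to glutamine 5 of histone H3, beside the trimethylated lysine 4. RNA-seq, ChIP-seq and CUT&Tag make up 47 samples. RNA and ChIP-seq compared PC3 cells that overexpress DDC, cells that overexpress SLC6A4 and cells with an empty vector, with 3 libraries per group and assay; CUT&Tag added SLC6A4 cells with TGM2 knockdown (shTGM2) beside SLC6A4 and control cells, with 1 library each in the table used here. CUT&Tag of DDC cells, with and without TG2-IN-1, was not analysed here. All groups share one parental line and the transduction of a construct. The promoter of the constructs and whether a group is a clone or a pool are not given in the sources used here. No label says that replicates were separate cultures, so p-values measure only the spread between these libraries.

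The RNA libraries held 17284019 to 21745703 reads in genes, of which 16.9 to 18.2% were mitochondrial. The targeted genes followed the labels, with 23, 25 and 31 DDC reads in the DDC libraries against 0, 0 and 1 in empty vector, and 94, 120 and 130 SLC6A4 reads in the SLC6A4 libraries against 0, 0 and 1. TGM2 averaged 686 CPM (reads scaled to library size) with DDC, 1655 with SLC6A4 and 1027 in empty vector, lower with DDC (log2 difference -0.49, adjusted p = 0.00264) and higher with SLC6A4 (0.73, adjusted p = 6.99e-09; limma). KRT8, KRT18 and VIM were present in each RNA library, and KLK3 had 0 reads, as known for PC3. EPCAM, an epithelial marker, was low, at 1.30 CPM with DDC, 3.84 with SLC6A4 and 5.32 in empty vector. Among 7 markers of other cell types, CD3E and ALB had 0 reads and PTPRC had 1. PECAM1 averaged 3.87 CPM with DDC, 2.26 CPM with SLC6A4 and 11.8 CPM in empty vector, and COL1A1 0.67, 1.09 and 2.25 CPM in that order; the part of EPCAM, PECAM1, COL1A1 and TGM2 levels in the proteasome results was not tested. In the regions counted for ChIP-seq, H3K4me3Q5ser libraries held 13511040 to 24765380 read pairs, H3K4me3 libraries 3429714 to 5811116 read pairs and input libraries 1394509 to 1833609 read pairs.

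Proteasome RNA was abundant. The 50 members took 2.32, 2.34 and 2.40% of all reads in genes in the DDC libraries and 2.43, 2.39 and 2.35% in the SLC6A4 libraries, against 1.97, 2.06 and 2.12% in empty vector. Neither set of overexpressing libraries overlapped empty vector. The constitutive beta ring alone took 0.977, 0.992 and 1.04% with DDC and 0.976, 0.973 and 0.952% with SLC6A4, against 0.780, 0.810 and 0.833% in empty vector. The ATPases took 0.363 to 0.38% with DDC and 0.395 to 0.417% with SLC6A4, against 0.308 to 0.321% in empty vector. In bulk RNA, a change in each cell and a change in the share of cells that express a gene cannot be told apart.

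Levels per length are given as RPKM (reads scaled to exon length in kb and to library size), as group means. The highest member was PSMB6, the caspase-like beta subunit, at 2084 ± 129 RPKM with DDC, 2028 ± 98.7 with SLC6A4 and 1568 ± 92.7 in empty vector (SD, n = 3 each). PSMB5, the chymotrypsin-like subunit, stood at 1223 ± 53.7 RPKM with DDC, 1398 ± 34.8 with SLC6A4 and 1218 ± 34.3 in empty vector. The trypsin-like subunit PSMB7 was lower, at 464 ± 10.4 RPKM with DDC, 466 ± 11.2 with SLC6A4 and 370 ± 20.9 in empty vector. The inducible counterparts that replace these 3 subunits in the immunoproteasome were far lower: PSMB9 averaged 26.1 RPKM with DDC, 23.6 with SLC6A4 and 20.9 in empty vector, and PSMB8 averaged 6.59, 6.44 and 5.53 RPKM in the same order.

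Subunits that stand in equal numbers in the assembled particle had very unequal RNA levels. In empty vector, the alpha ring ran from PSMA7 at 991 RPKM to PSMA5 at 14.2 RPKM, a 69.7-fold range, and the beta ring from PSMB6 to PSMB2 at 102 RPKM, a 15.4-fold range. The ATPases ran from PSMC3 at 720 RPKM to PSMC6 at 9.39 RPKM, and the other subunits of the regulatory particle from PSMD4, a ubiquitin receptor, at 255 RPKM to PSMD3 at 0.66 RPKM. PSME4, a nuclear activator, was the lowest measured member, at 0.25 ± 0.05 RPKM with DDC, 0.37 ± 0.06 with SLC6A4 and 0.39 ± 0.07 in empty vector. These ranges depend on the length used. The union of exons was 7479 bp for PSMC6, against 2163 bp for its canonical transcript, and 2276 against 1540 bp for PSMC3. Across the 48 measured members, level per length fell with transcript length (Pearson r = -0.47 on log2 scales), and across 11008 tested protein-coding genes r was -0.59. With levels per kb of canonical transcript, r over the 48 members was -0.60. Some exons also overlap another gene: 76.2% of PSMC1 exon bases lie opposite a gene on the other strand, 31.2% of PSMD7 bases likewise, and 39.4% of PSMB10 bases lie in a gene on the same strand. Whether the RNA counting used strand is not given in the sources used here. Reads at 13 PSMC1 pseudogenes came to 18.9% of those at PSMC1, so its counts may be shared between copies.

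**Figure D1:**
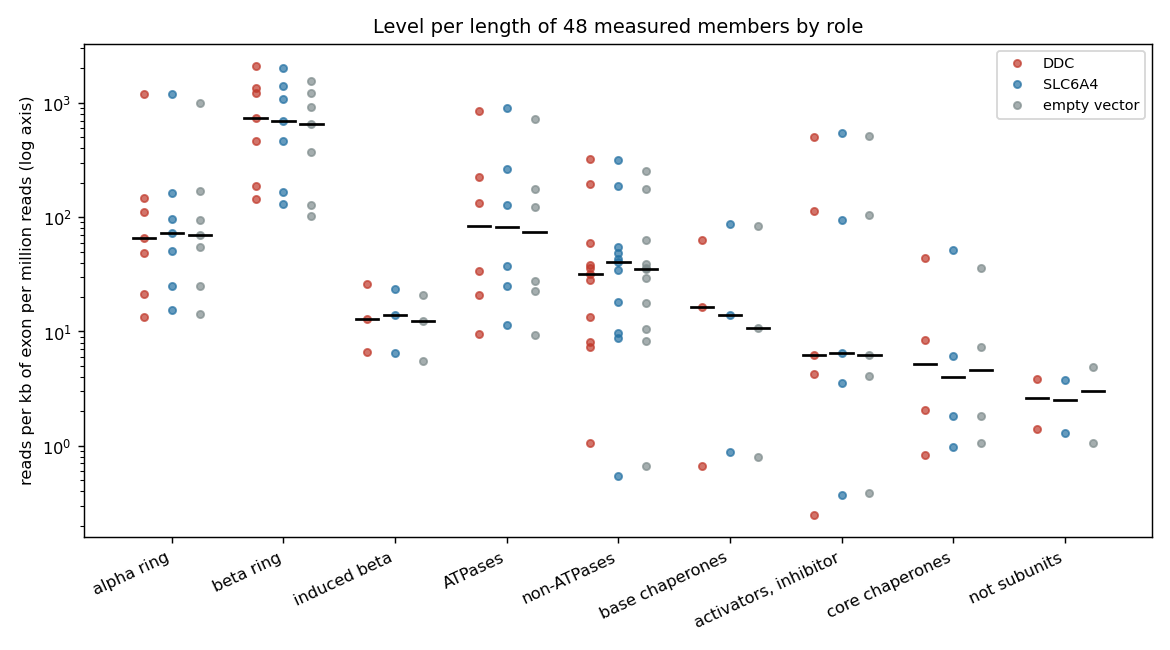
RNA level per length of the 48 measured members, grouped by role along the horizontal axis. Each point is 1 gene's mean over 3 libraries in RPKM on a log axis (DDC left, SLC6A4 middle, empty vector right), and black bars are medians; the beta ring sits highest, and PSME4 and PSMD3 lie at the bottom.

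Start-site sequence was available from RefSeq (GRCh38.p14, 250 bases before to 50 after the start) for 44 of the 50 members. It was missing for PSMA7, PSMB1, PSMB6, PSMB7, PSMD4 and PSMG3. The sequence TGAC, any 3 bases, GC, read on both strands, is the core of the antioxidant response element. It was in 13 member windows (29.5%), against 13.6% of 27305 promoters of the same length. CCGGAAG, a core of ETS family sites, was in 14 member windows (31.8%), against 10.7% of all promoters. CCAAT, the NF-Y box, was in 21 (47.7%), against 35.7%, and GCATGCG, the site of nuclear respiratory factor 1, was in 2 (4.55%), against 4.13%. A match describes letters in a window and is no evidence of binding. The windows of PSMB3, PSMD9 and PSMD3 are shown because each holds the antioxidant core and these 3 genes were among those higher with DDC than in both other groups; that of PSMC5 is shown because it has no core and its RNA had the smallest adjusted p with SLC6A4. Capitals mark the core, on the strand of the gene or its complement. The windows are PSMB3 at chr17:38752491-38752790, PSMD9 at chr12:121888540-121888839, PSMD3 at chr17:39980557-39980856 and PSMC5 at chr17:63827181-63827480, all on the plus strand of GRCh38.
PSMB3: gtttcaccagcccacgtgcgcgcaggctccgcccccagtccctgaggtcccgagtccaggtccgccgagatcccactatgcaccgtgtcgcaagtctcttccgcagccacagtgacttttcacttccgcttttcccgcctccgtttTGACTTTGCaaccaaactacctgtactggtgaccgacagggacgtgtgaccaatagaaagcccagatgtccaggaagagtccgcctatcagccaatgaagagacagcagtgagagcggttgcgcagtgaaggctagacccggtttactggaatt
PSMD9: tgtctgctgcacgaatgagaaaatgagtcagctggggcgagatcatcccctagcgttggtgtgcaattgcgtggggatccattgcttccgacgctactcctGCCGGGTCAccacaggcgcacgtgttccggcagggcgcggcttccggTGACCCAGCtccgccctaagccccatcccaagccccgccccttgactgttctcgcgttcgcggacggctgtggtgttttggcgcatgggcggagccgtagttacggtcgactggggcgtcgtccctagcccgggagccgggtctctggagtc
PSMD3: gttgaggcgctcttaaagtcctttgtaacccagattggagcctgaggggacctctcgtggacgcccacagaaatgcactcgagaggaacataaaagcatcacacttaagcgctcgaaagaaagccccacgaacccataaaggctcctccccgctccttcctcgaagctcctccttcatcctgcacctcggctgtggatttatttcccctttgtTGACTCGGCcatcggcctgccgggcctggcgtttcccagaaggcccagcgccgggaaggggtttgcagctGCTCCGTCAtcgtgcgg
PSMC5: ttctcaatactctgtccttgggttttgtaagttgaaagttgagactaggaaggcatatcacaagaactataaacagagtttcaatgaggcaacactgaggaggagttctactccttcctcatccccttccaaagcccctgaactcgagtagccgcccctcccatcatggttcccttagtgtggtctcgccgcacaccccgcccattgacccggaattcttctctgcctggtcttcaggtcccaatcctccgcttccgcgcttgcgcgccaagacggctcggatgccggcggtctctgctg
The core of PSMB3 began 104 bases before the start. PSMD9 held 2, at 149 and 102 bases before the start, and PSMD3 held 2, at 37 bases before and 34 bases after it.

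With DDC, RNA of the constitutive beta subunits and of the ATPases rose for most genes, by 0.24 to 0.69 on the log2 scale, and the chaperone PSMD9 and lid subunit PSMD3 rose by 0.72 and 0.76. The lid subunits PSMD6 and PSMD12 and the chaperone PSMD10 fell. Among the 48 members tested against empty vector, 22 rose, 3 fell and 23 did not pass (limma, Benjamini-Hochberg adjusted p under 0.05 over 13146 genes), where 8.94% of all genes tested rose and 8.41% fell. Most members are highly expressed. Among 1384 genes averaging at least 1000 normalised reads, 28.3% rose and 11.6% fell, and of the 37 members there 18 rose and 3 fell. The members' median log2 difference was 0.18, against 0.01 over all genes and 0.10 over the highly expressed ones. In 25 members all DDC libraries lay above all empty vector libraries, and in 4 below, against 17.3% and 16.1% of all genes.

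Of the 7 constitutive beta subunits, 6 rose with DDC, with a median log2 difference of 0.54 over the 7; of these PSMB1 (0.29, adjusted p = 0.0149) did not pass without DDC replicate 2 or empty vector replicate 2 or 3. PSMB2 had 12463, 13316 and 13867 normalised reads in the DDC libraries, against 8879.8, 8276 and 8244 in empty vector (log2 difference 0.64 ± 0.08 SE, adjusted p = 2.11e-06). PSMB3 had 29292, 30113 and 36229.8 normalised reads with DDC, against 20134, 19957 and 19113 in empty vector (0.69 ± 0.09, adjusted p = 6.24e-06), and PSMB4 had 7475, 7036 and 9497, against 4756, 4809 and 5384 (0.67 ± 0.09, adjusted p = 1.55e-05). These 3 are structural subunits without a cutting site, and in each the groups lay well apart.

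The cutting subunits differed among themselves. PSMB6 had 56157, 57340.1 and 68465 normalised reads with DDC, against 40162, 42111 and 42774 in empty vector (0.54 ± 0.09, adjusted p = 0.00028). PSMB7 had 15530.1, 16870.3 and 17580.2 with DDC, against 11839, 12089 and 12551 (0.45 ± 0.08, adjusted p = 0.000248). Both rose without overlap. PSMB5, the target of bortezomib, had 34752, 39392 and 39964 with DDC, against 34535, 34989.7 and 34488 in empty vector, and its difference of 0.13 ± 0.09 did not pass (adjusted p = 0.333), with 1 DDC library inside the empty vector range. Of the inducible subunits, PSMB9, which replaces PSMB6, had 1632, 1749 and 1867 with DDC, against 1182, 1319 and 1347 (0.45 ± 0.08, adjusted p = 0.000439), and PSMB8, which replaces PSMB5, had 465, 434 and 479.6, against 382, 350.0 and 331 (0.38 ± 0.10, adjusted p = 0.0078). Both rose, while PSMB10, which replaces PSMB7, had 429, 354 and 473 with DDC, against 358, 379 and 362, with overlapping groups (adjusted p = 0.26).

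In the alpha ring, which gates the barrel, 2 of 7 measured genes rose with DDC and the median log2 difference was 0.03. PSMA7 had 39898, 41502 and 44794 normalised reads with DDC, against 32301, 32678 and 30785 in empty vector (0.40 ± 0.09, adjusted p = 0.00201), and PSMA6 had 13819, 14492 and 15101, against 11199.7, 11006 and 11581 (0.36 ± 0.08, adjusted p = 0.00173). The 5 other alpha genes had differences between -0.11 and 0.03 and did not pass.

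In the regulatory particle, 4 of the 6 ATPases rose with DDC, with a median of 0.30. PSMC5 had 18079, 19444 and 20559 normalised reads with DDC, against 13714, 13744 and 13942 in empty vector (0.49 ± 0.08, adjusted p = 0.000114), and PSMC2 had 5765, 5627 and 6192, against 4250.1, 4365 and 4506 (0.42 ± 0.07, adjusted p = 0.000289). PSMC3 (0.36) and PSMC4 (0.24) also rose, though PSMC4 passed narrowly (adjusted p = 0.0434) and was lost in 10 of 14 alternatives, among them without any 1 empty vector replicate or DDC replicate 2 or 3, while PSMC6 (0.14) and PSMC1 (0.01) did not pass. The 11 other subunits went both ways, with 3 higher, 2 lower and a median of 0.10. The ubiquitin receptor PSMD4 (0.46) and PSMD8 (0.29) rose, PSMD8 not without any 1 of the empty vector replicates (adjusted p from 0.054 to 0.081). PSMD3, a subunit of the lid, had 89.4, 143 and 79 normalised reads with DDC, against 64.3, 74.3 and 42.2 in empty vector (0.76 ± 0.21, adjusted p = 0.0125). It has few reads, and the 3 DDC libraries lay above the 3 empty vector libraries, 1 of them far above. Without DDC replicate 2 (adjusted p = 0.115) or empty vector replicate 3 (adjusted p = 0.0789) it did not pass. Its fellow lid subunit PSMD6 fell, with 1305, 1339 and 1336 with DDC, against 1745, 1855 and 1647 in empty vector (-0.40 ± 0.08, adjusted p = 0.00086). PSMD12, another lid subunit, had 1469, 1317 and 1478, against 1675, 1865 and 1697 (-0.30 ± 0.08, adjusted p = 0.0125). That call was lost without empty vector replicate 2 (adjusted p = 0.105) or DDC replicate 2 (adjusted p = 0.0766).

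The assembly chaperones of the regulatory particle split. PSMD9 had 2667, 2832 and 3108 normalised reads with DDC, against 1682, 1732 and 1811 in empty vector (0.72 ± 0.08, adjusted p = 5.19e-07), the smallest adjusted p of all members. PSMD10, the chaperone also known as gankyrin, fell, with 3115, 2975 and 2882 with DDC, against 3611, 3904 and 3519 in empty vector (-0.30 ± 0.08, adjusted p = 0.00776). Without empty vector replicate 2 it did not pass (adjusted p = 0.0824). Of the core chaperones, PSMG3 (0.41) and PSMG2 (0.29) rose, PSMG2 not in 8 of 14 alternatives, among them without any 1 empty vector replicate or DDC replicate 1 or 2 (adjusted p up to 0.246), and PSMG1 (0.33, adjusted p = 0.0524) and PSMG4 (-0.21) did not pass.

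Among the activators, PSME1 alone passed with DDC, with 3861, 3964 and 4320.5 normalised reads, against 3486, 3365 and 3469 in empty vector (0.23 ± 0.08, adjusted p = 0.0341). That call was lost in 8 of 14 alternatives (adjusted p from 0.0511 to 0.273), among them edgeR with TMM, no filter, and without any 1 empty vector replicate or DDC replicate 2 or 3. Its partner in the interferon-inducible ring, PSME2, had 34627, 35626 and 38717 with DDC, against 32161, 33798 and 34667 (0.11 ± 0.09, adjusted p = 0.401). The nuclear activator PSME3 had 423, 446 and 437, against 385, 439 and 333 (adjusted p = 0.245), with overlapping groups. PSME4 had 43.7, 46.2 and 66.3 with DDC, against 74.3, 61.5 and 87, a difference of -0.51 ± 0.19 that did not pass (adjusted p = 0.0631). It passed as lower in edgeR with TMM (adjusted p = 0.0497) and in edgeR with library size alone. It also passed with the replicate block (adjusted p = 0.0393), and without empty vector replicate 2 or DDC replicate 3 (adjusted p = 0.0429 and 0.0175). The inhibitor PSMF1 differed by 0.11 and did not pass. Of the members that are not subunits, PSMC3IP was higher by 0.50 at an adjusted p of 0.0499, lost in 11 of 14 alternatives (adjusted p up to 0.232), among them DESeq2, edgeR and the replicate block, and without any 1 empty vector replicate or DDC replicate 1 or 3. PSME3IP1 (-0.23) did not pass.

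**Figure D2:**
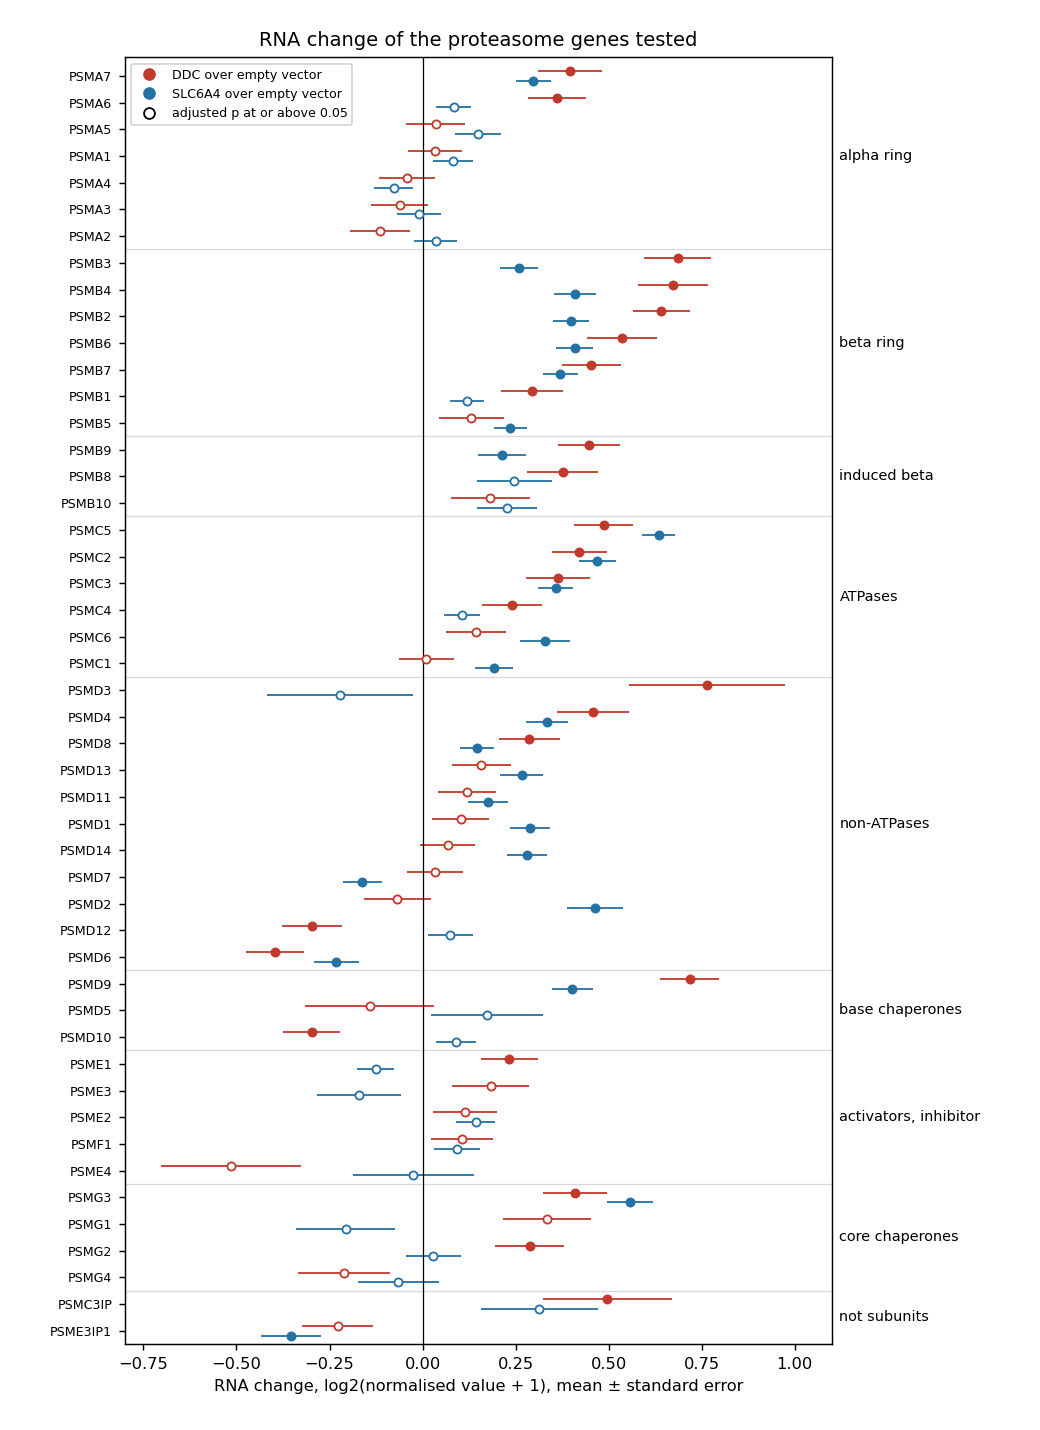
RNA difference from empty vector of the 48 members tested, grouped by role; the horizontal axis is the difference in log2(normalised value + 1), points are fitted means and bars standard errors (red DDC, blue SLC6A4, 3 libraries each), open where the adjusted p is at or above 0.05. The beta ring and ATPases lie to the right of 0 for both lines, while the non-ATPase subunits spread from -0.40 for PSMD6 to 0.76 for PSMD3 with DDC.

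With SLC6A4, RNA of the beta subunits and of both parts of the regulatory particle rose for most genes, led by PSMC5 and PSMC2. The core chaperone PSMG3 rose too, and PSMD6 and PSMD7 fell. The totals against empty vector were 22 members higher, 3 lower and 23 not passing, where 10.2% of 13264 genes tested rose and 9.28% fell. Among 1439 genes averaging at least 1000 normalised reads, 35.1% rose and 15.5% fell, and of 37 members there 22 rose and 2 fell. The members' median was 0.17, against 0.01 over all genes and 0.09 over the highly expressed ones. The groups did not overlap in 29 members that were higher and 4 that were lower, against 18.5% and 16.4% of all genes. Both comparisons use the same 3 empty vector libraries, scaled separately in the authors' tables, so empty vector values differ slightly between them and likeness between the comparisons is no independent evidence.

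PSMC5, an ATPase, had 23150.4, 22331 and 22139.5 normalised reads with SLC6A4, against 14394, 14483 and 14689.7 in empty vector (0.63 ± 0.05, adjusted p = 1.72e-08), the smallest adjusted p of all members. PSMC2 had 6513, 6166 and 6439, against 4461, 4599.7 and 4747 (0.47 ± 0.05, adjusted p = 2.64e-06). PSMC1 (0.19), PSMC3 (0.36) and PSMC6 (0.33) rose too, so 5 of 6 ATPases were higher, with a median of 0.34, and PSMC4 (0.11) did not pass. Of the 11 other regulatory subunits, 7 rose and 2 fell. PSMD2, a scaffold that binds ubiquitin shuttles, had 5109.8, 4776 and 4435 with SLC6A4, against 3059, 3441 and 3916 in empty vector (0.46 ± 0.08, adjusted p = 0.000233). The deubiquitinase PSMD14 (0.28), the scaffold PSMD1 (0.29), PSMD4 (0.33), PSMD13 (0.27), PSMD11 (0.18) and PSMD8 (0.15) rose as well. PSMD8 did not pass in 9 of 14 alternatives, among them without empty vector replicate 1 or 2 or any 1 SLC6A4 replicate (adjusted p up to 0.152), nor PSMD11 without empty vector replicate 1 or SLC6A4 replicate 1; with the replicate block both were lost.

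PSMD6 fell with SLC6A4 as it had with DDC, with 1597, 1540.2 and 1560.1 normalised reads, against 1832, 1955 and 1735 in empty vector (-0.23 ± 0.06, adjusted p = 0.0103). Without empty vector replicate 2 it did not pass (adjusted p = 0.0734). PSMD7, the inactive partner of PSMD14, had 2976, 2844 and 3009.8 with SLC6A4, against 3172, 3379 and 3327 (-0.16 ± 0.05, adjusted p = 0.0396). Leaving out empty vector replicate 2 or 3, or any SLC6A4 replicate, lost the PSMD7 call (adjusted p from 0.054 to 0.167), and the count of lower members was 1 without empty vector replicate 2. PSMG3 rose, with 1900.4, 2164 and 2046, against 1399.8, 1335 and 1415 (0.56 ± 0.06, adjusted p = 4.2e-06), and was the only one of 4 core chaperones to pass. PSMD9 rose by 0.40, while PSMD10 (0.09) and PSMD5 (0.17) did not pass.

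In the beta ring, 6 of 7 genes rose with SLC6A4 with a median of 0.37, and here PSMB5 was among them. PSMB5 had 43886, 42665 and 42386 normalised reads with SLC6A4, against 36246, 36872 and 36337 in empty vector (0.24 ± 0.05, adjusted p = 0.00108). PSMB6 had 61110.2, 57016 and 56548, against 42152, 44377 and 45068 (0.41 ± 0.05, adjusted p = 1.27e-05), and PSMB7 had 16114, 16903 and 16580.3, against 12426, 12739.5 and 13224 (0.37 ± 0.05, adjusted p = 2.04e-05). All 3 cutting subunits were thus higher without overlap. PSMB2 (0.40), PSMB3 (0.26) and PSMB4 (0.41) rose, and PSMB1 (0.12) did not pass. PSMB9 had 1636, 1516 and 1536 with SLC6A4, against 1241, 1389 and 1419 (0.21 ± 0.06, adjusted p = 0.028), a call lost without empty vector replicate 1 or any 1 SLC6A4 replicate (adjusted p up to 0.129). PSMB8 had 369, 475 and 491, against 401, 369 and 349, and PSMB10 had 427, 492 and 436, against 375, 399 and 382; neither passed (adjusted p = 0.101 and 0.0593).

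Of the alpha ring, PSMA7 rose with SLC6A4, with 41439, 40968 and 41407 normalised reads, against 33901, 34436 and 32435 in empty vector (0.30 ± 0.05, adjusted p = 0.000153), and the 6 others did not pass. Of the 5 activators and inhibitors, 0 passed in limma, and 1 was higher and 1 lower at an unadjusted p under 0.05. DESeq2 and edgeR with TMM also called 0, and edgeR with library size alone called 1 lower. PSME1 had 3245, 3316 and 3389 with SLC6A4, against 3659, 3546 and 3656, and lay below empty vector without overlap at a difference of -0.13. PSME2 had 41719.6, 37761 and 37474, against 33754, 35616 and 36526, PSME3 had 415, 306 and 362, against 404, 463 and 351, and PSME4 had 87.8, 64.5 and 77.8, against 78, 64.8 and 91.6. PSME3IP1 fell, with 345, 304 and 317, against 415, 402 and 415 (-0.35 ± 0.08, adjusted p = 0.00471).

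The direct comparison of DDC with SLC6A4, on 1 scale for the 9 libraries, found 11 members higher with DDC, 4 lower and 33 not passing, where 6.47% of 13544 genes were higher and 6.74% lower. Among 1423 genes averaging at least 1000 normalised reads, 18.6% were higher and 14.9% lower, and of 37 members there 7 were higher and 4 lower. The members' median was 0.01 and that of all genes 0.00. Groups did not overlap in 14 members that were higher and 12 that were lower, against 14.1% and 14.6% of all genes.

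The members that were lower with DDC than with SLC6A4 all belong to the regulatory particle or its assembly. PSMD2 had 3156, 3530.2 and 2945 normalised reads with DDC, against 4982, 4638 and 4319 with SLC6A4 (-0.53 ± 0.09, adjusted p = 0.000138). PSMD10 had 3185, 3045 and 2939.8 with DDC, against 4046, 3906 and 4068 with SLC6A4 (-0.39 ± 0.07, adjusted p = 0.000238). PSMD12 had 1502, 1348 and 1508, against 1933, 1788 and 1925 (-0.37 ± 0.07, adjusted p = 0.00107). In each the groups lay apart. PSMD14 had 4193, 4084 and 4369.9 with DDC, against 5015, 4679 and 5005 with SLC6A4 (-0.22 ± 0.06, adjusted p = 0.0275), a call lost when DDC replicate 1 or 2 or SLC6A4 replicate 1 or 3 was left out (adjusted p from 0.0503 to 0.119).

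Higher with DDC were 4 beta subunits, the alpha subunit PSMA6, the activators PSME1 and PSME3, the lid subunit PSMD3 and 3 chaperones. PSME1 had 3947, 4057 and 4408 normalised reads with DDC, against 3164, 3220.1 and 3301 with SLC6A4 (0.36 ± 0.06, adjusted p = 0.000523), so its values lay on either side of empty vector in the 2 lines. PSMB3 had 29949, 30817 and 36962, against 22768, 25244 and 24575 (0.42 ± 0.08, adjusted p = 0.000642), and PSMD9 had 2727, 2899 and 3171, against 2394, 2309 and 2371 (0.31 ± 0.07, adjusted p = 0.00362). PSMD3 had 91.4, 146 and 80.6 with DDC, against 57.7, 46.3 and 50.8 with SLC6A4 (0.98 ± 0.21, adjusted p = 0.00289). These 4 windows hold the antioxidant core, as do those of PSMG1 (0.54), PSMG2 (0.26) and PSMB9 (0.23), also higher. The window of PSMD12, which was lower with DDC, holds it too. The rest of the higher calls were PSMA6 (0.27), PSMB2 (0.24), PSMB4 (0.26) and PSME3 (0.35). Of these 11 calls, PSMG2 was lost in 11 of 17 alternatives, PSMB4 in 10, PSMB9 in 9, PSME3 in 8 and PSMB2 in 4. Each of the 6 DDC and SLC6A4 libraries, and empty vector replicates 1 and 2, ended at least 1 of these calls when left out; with the replicate block PSMG2 (adjusted p = 0.0568) and PSMB9 (adjusted p = 0.0534) were lost. The other 6 kept their call in all 17. The count of higher members was 7 without DDC replicate 2 or without SLC6A4 replicate 3 and 6 without SLC6A4 replicate 2, and the count of lower members was 8 without DDC replicate 3.

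Split by the antioxidant core, 7 of 13 members that hold it and 4 of 29 without it were higher with DDC than with SLC6A4, with medians of 0.23 and -0.05. Lower with DDC were 1 of 13, PSMD12, and 3 of 29. Against empty vector, 7 of 13 and 9 of 29 were higher with DDC (medians 0.24 and 0.12), and 1 of 13, again PSMD12, and 2 of 29 lower. With SLC6A4, 4 of 13 and 13 of 29 were higher (medians 0.11 and 0.18), and 0 of 13 and 3 of 29 lower. The split leaves out the members with no window, PSMA7, PSMB1, PSMB6, PSMB7, PSMD4 and PSMG3. All of these rose with DDC against empty vector, and all but PSMB1 rose with SLC6A4. None of them passed between the lines. The RefSeq start used for the PSMG2 window lies 44304 bp from the start used for its promoter region, and that of PSMF1, which has no core, 5339 bp. Without these, 6 of 12 and 4 of 28 were higher with DDC than with SLC6A4 (medians 0.18 and -0.05). This split is a description of these members, and no test was made of it.

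The scale of the libraries moved these counts. When libraries were scaled by their totals only, the middle gene moved by -0.12 for DDC against empty vector and by -0.08 for DDC against SLC6A4. For DDC against empty vector, 16 members were then higher and 6 lower, where 593 of 13045 genes were higher and 1801 lower. Relative to all genes the members' median stayed at 0.18 there. For DDC against SLC6A4 under library size alone, 6 members were higher and 14 lower, so the split between the lines turned. Over all genes 569 of 13660 were higher and 1429 lower, so the turn was not particular to the members. The members' median relative to all genes was 0.00. For SLC6A4 against empty vector the split was 18 higher and 4 lower, where 1067 of 13304 genes were higher and 1442 lower.

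RNA differences also moved with base composition. Across the 48 members, the DDC difference had r = 0.49 with the GC content of the transcript, against 0.19 over 13140 genes, and the SLC6A4 difference had r = 0.27, against 0.04 over 13258 genes. The points share libraries and depth. With the GC trend removed from each library, 22 members were higher and 1 lower with DDC, of which 20 and 1 kept their call. With SLC6A4, 26 were higher and 2 lower, of which 22 and 2 kept it. Over all genes, 9.80% were then higher and 6.53% lower with DDC, and 12.4% and 8.24% with SLC6A4. PSMD10 and PSMD12 no longer passed with DDC after that step (-0.13 and -0.10).

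Genes that work with the proteasome but lie outside the rule were counted from fixed lists, against a background of 8.94% of all genes rising with DDC and 10.2% with SLC6A4 (28.3% and 35.1% among highly expressed genes). ADRM1, a ubiquitin receptor of the regulatory particle, rose by 0.63 in both lines (adjusted p = 8.04e-05 with DDC and 8.27e-07 with SLC6A4), while the small subunit SEM1 and the core chaperone POMP did not pass in either. Of 8 genes of the NFE2L1 pathway tested, 1 rose and 1 fell in each line. SYVN1, the ligase that turns NFE2L1 over, rose with DDC (0.40) and SLC6A4 (0.46). NFE2L2, the stress factor that binds the same element, fell with DDC (-0.33), and MAFF fell with SLC6A4 (-0.82). NFE2L1 itself had 107, 116 and 89.7 normalised reads with DDC, against 131, 130.5 and 132 in empty vector, and did not pass (-0.34, adjusted p = 0.0944). TXNL1, a thioredoxin-like protein bound to the regulatory particle, rose with DDC (0.38) and with SLC6A4 (0.55), and was the 1 of 8 associated factors to rise in either. Of 14 ubiquitin and shuttle genes, 6 rose with DDC, among them the unfoldase VCP (0.51) and its cofactors NPLOC4 (0.60) and UFD1 (0.40), and 3 rose with SLC6A4, among them NPLOC4 (0.36).

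Promoter marks were read from 46 regions of the deposited H3K4me3Q5ser list that lie within 1000 bp of the start of 48 members. PSMB8 and PSMB9 share a region, as do PSME1 and PSME2. Many of the regions also hold the start of a protein-coding gene outside the rule, such as ERO1A at PSMC6 and ATG4A at PSMD10. Their signal is therefore not the member's alone. The 46 regions were long, with a median of 11044.5 bp, against 4023 bp over 19535 regions. Longer regions hold more reads and can pass more readily. The shares over all regions given below are not matched for length. Their H3K4me3Q5ser density had a median of 11.1 CPM per kb with DDC, 11.3 with SLC6A4 and 10.8 in empty vector, against 6.26, 6.42 and 6.69 over all regions. Their H3K4me3 density had medians of 8.43, 8.93 and 8.75 CPM per kb, close to the 8.01, 8.56 and 7.92 of all regions. Input density at the members was 7.72 CPM per kb with DDC and 8.39 in empty vector, against 9.19 and 8.96 over all regions.

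With DDC, H3K4me3Q5ser was higher at 29 member regions, lower at 10 and not passing at 7 (edgeR, Benjamini-Hochberg adjusted p under 0.05), where 29.7% of 19535 regions were higher and 31.5% lower. At the single regions of 5756 tested protein-coding genes whose RNA did not pass with DDC, 37.4% were higher and 30.4% lower. The differences at member regions were small, from -0.27 to 0.33 with a median of 0.09. The region of PSMG2 had 324, 316 and 317 CPM with DDC, against 257, 255 and 248 in empty vector (0.33, adjusted p = 1.67e-34). PSMA7 had 151, 152 and 151, against 119, 123 and 128 (0.30), and PSMB4 had 147, 149 and 143, against 119.5, 121 and 118 (0.29). RNA of these 3 genes rose with DDC. At PSMD10, whose RNA fell, the mark was 79.3, 83 and 82.8 CPM with DDC, against 98.1, 97.2 and 99.6 (-0.27, adjusted p = 1.66e-14). PSMA5 had 135, 137 and 131, against 152, 154 and 151 (-0.17), and PSMD2 had 228, 227 and 229, against 248, 249 and 252 (-0.13).

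Input moved at one of these. At the PSMD10 region the input averaged 52.6 CPM with DDC, against 75.5 CPM in empty vector (-0.51), and the PSMC6 region was lower by 0.10. In input 0 member regions were higher and 2 lower (edgeR), and 5 and 3 at an unadjusted p under 0.05, where 2.69% of 18025 regions were higher and 3.61% lower. Relative to input, 3 member regions were higher and 0 lower in H3K4me3Q5ser with DDC (edgeR), and 10 and 0 at an unadjusted p under 0.05. The share of all regions called in that fit is not given here, so these counts cannot be set against it. The PSMD10 difference relative to input was 0.27 and did not pass. SLC6A4 inputs were not analysed here, so its marks could not be set against input.

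H3K4me3 with DDC was higher at 5 regions and lower at 5, where 8.24% of 18972 regions were higher and 9.39% lower. PSMG2 had 237, 226 and 209.7 CPM with DDC, against 182, 182 and 178 in empty vector (0.31). PSMD9 had 104, 101 and 97.8, against 77.7, 77.8 and 85 (0.33), and PSMD7 had 67.2, 64.9 and 59.2, against 52.1, 44.7 and 52 (0.36). Groups did not overlap at these 3. PSMD2 had 173, 189 and 172, against 225, 208 and 193 (-0.23), PSMG3 had 67, 59.6 and 58.9, against 72.1, 73.4 and 74.1 (-0.25), and PSME4 had 114, 103 and 109, against 122, 126 and 123 (-0.19). The count of lower regions was 3 without empty vector replicate 2 or 3 or DDC replicate 3, and 2 without DDC replicate 2. Relative to input, 1 region was higher and 0 were lower (edgeR), and 5 and 1 at an unadjusted p under 0.05, again with no share over all regions given.

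With SLC6A4, H3K4me3Q5ser was higher at 31 member regions and lower at 14, where 41.0% of all regions were higher and 41.5% lower. At the single regions of 5585 tested protein-coding genes whose RNA did not pass with SLC6A4, 50.9% were higher and 36.3% lower. The member differences ran from -0.46 to 1.09 with a median of 0.19. PSMA7 had the largest difference, with 263, 263 and 259 CPM with SLC6A4, against 119, 123 and 128 in empty vector (1.09, adjusted p = 3.77e-78). PSMF1 had 154, 152 and 152, against 102, 105 and 102 (0.57), and PSMC5 had 518, 518 and 517, against 419, 426 and 425 (0.29). At the low end, PSMA3 had 384, 384 and 388, against 528, 538 and 526 (-0.46, adjusted p = 3.31e-67), PSMC6 had 546, 547 and 533, against 675, 684 and 670.2 (-0.32), and PSMD10 differed by -0.39. Groups did not overlap at these regions.

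H3K4me3 with SLC6A4 was higher at 22 member regions and lower at 12, where 31.9% of all regions were higher and 29.6% lower. PSMA7 had 139, 141 and 139 CPM with SLC6A4, against 78.6, 82.7 and 86.4 in empty vector (0.75). PSMF1 had 131, 124 and 131, against 97.1, 102 and 88.3 (0.43), and PSMC3IP had 197, 198 and 214, against 158, 159 and 153 (0.38). PSMC6 had 481, 472 and 459, against 650.0, 655 and 649 (-0.47), PSMA3 had 326, 312 and 319, against 419.9, 422 and 411 (-0.39), and PSMB2 had 149, 155 and 153, against 191, 195 and 185 (-0.32). The same regions thus stood at both ends in both marks for PSMA7, PSMF1, PSMA3 and PSMC6. Over the 46 regions the differences in the 2 marks had r = 0.95 for SLC6A4 and 0.69 for DDC, a description of regions counted in separate libraries of the same cells.

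The mark differences of SLC6A4 moved with base composition. The 14 regions lower in H3K4me3Q5ser had a median GC content of 42.2% (39.2 to 48.4%), and the 31 higher ones 47.6% (40.0 to 55.3%). Over 46 regions, GC content had r = 0.73 with the H3K4me3Q5ser difference and 0.75 with that of H3K4me3, against 0.69 over 19480 regions and 0.64 over 18921 regions. For DDC against empty vector r was 0.17 and -0.16. With the GC trend removed from each library, 39 member regions were higher and 4 lower in H3K4me3Q5ser with SLC6A4, and 10 regions turned sign. Over all regions, 40.3% were then higher and 33.5% lower. After that step PSMC6 differed by 0.11 and PSMD10 by 0.20. In H3K4me3 the counts became 18 higher and 6 lower, where 19.8% of all regions were higher and 22.4% lower.

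**Figure D3:**
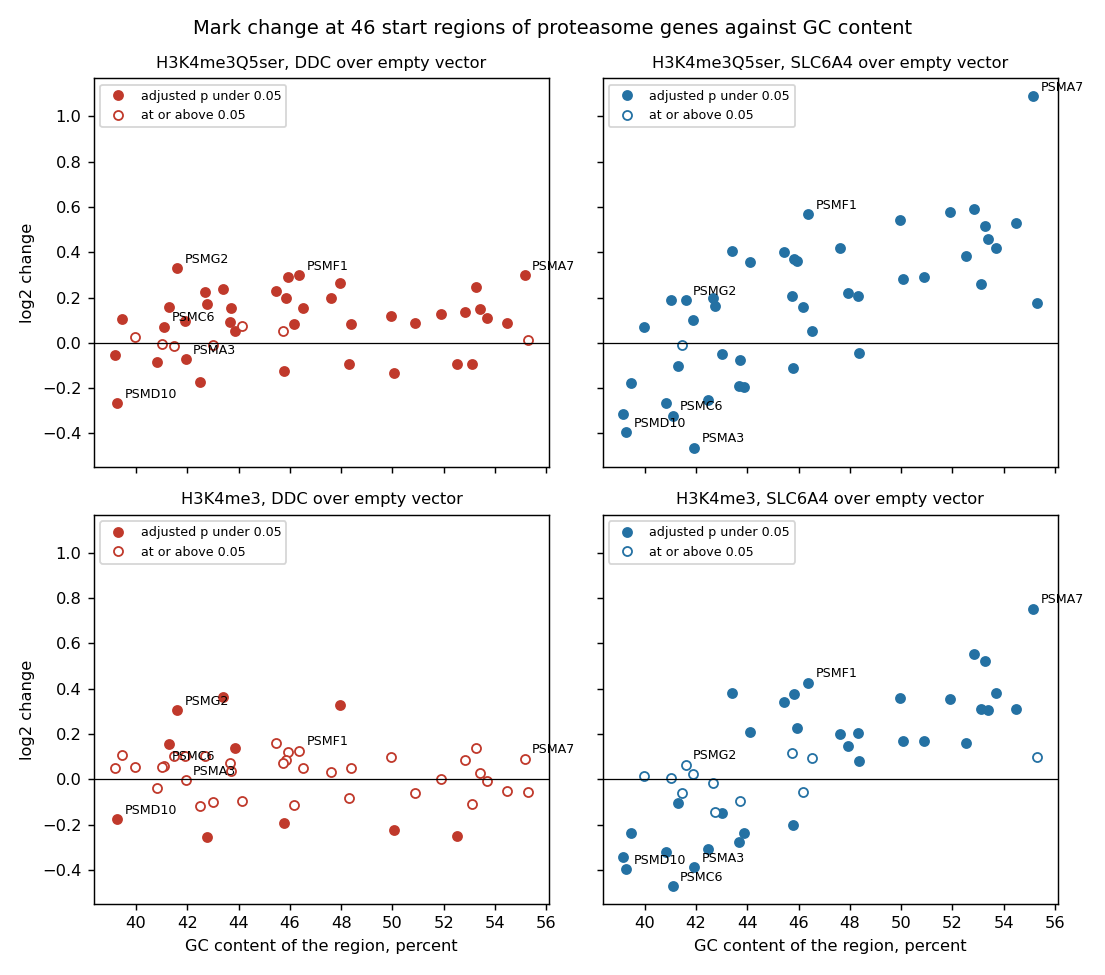
Difference in each mark from empty vector (vertical axis, log2) at the 46 member regions against the GC content of the region in percent, for H3K4me3Q5ser (top) and H3K4me3 (bottom), DDC left and SLC6A4 right; filled points have an adjusted p under 0.05. With SLC6A4 points rise with GC content in both marks, from PSMA3 and PSMC6 at the low end to PSMA7 at 55.2% GC, and with DDC they do not.

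PSMA7 lies in a stretch where the marks rose together with SLC6A4. Its region is chr20:62134721-62151795 (GRCh38), with 55.2% GC. Within 1000000 bp lay 27 other regions, of which 22 were higher in H3K4me3Q5ser, with a median of 0.83, and 4 exceeded PSMA7. Their median GC content was 54.2%. In H3K4me3, 16 of 24 such regions were higher, with a median of 0.50 and a median GC content of 54.3%. Over all 19535 regions, 1.63% exceeded PSMA7 in H3K4me3Q5ser, and in H3K4me3 6.30% of 18972 did. The part of base composition in this stretch was not tested. The RNA of PSMA7 differed by 0.30 in the same comparison.

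Between DDC and SLC6A4, H3K4me3Q5ser was higher with DDC at 14 member regions and lower at 24, where 38.0% of all regions were higher and 38.9% lower, and H3K4me3 was higher at 13 and lower at 18, where 29.3% were higher and 30.9% lower. PSMC6 had 713, 713 and 705 CPM of H3K4me3Q5ser with DDC, against 546, 547 and 533 with SLC6A4 (0.39), and PSMA7 had 151, 152 and 151, against 263, 263 and 259 (-0.79). PSMD2, whose RNA was also lower with DDC, had 228, 227 and 229 with DDC, against 303, 303 and 305 with SLC6A4 (-0.42). After removal of the GC trend, 8 regions were higher and 34 lower in H3K4me3Q5ser, where 5075 of 19535 regions were higher and 6919 lower. PSMA2, at 0.28 without that step, then differed by -0.18.

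Whether a line changed the serotonylated mark more than H3K4me3 was tested in 1 fit of both marks. With DDC the H3K4me3Q5ser difference exceeded that of H3K4me3 at 5 member regions and fell short at 0 (edgeR; 12 and 0 at an unadjusted p under 0.05, and 5 and 0 with DESeq2), where 5.15% of 19529 regions exceeded and 9.88% fell short. The 5 were PSMB7 (0.44, adjusted p = 0.000256), PSMC5 (0.15), PSMA7 (0.22), PSMF1 (0.18) and PSMB4 (0.18, adjusted p = 0.0483). The count was 3 without H3K4me3 empty vector replicate 1, and the PSMA7 call was lost without H3K4me3 empty vector replicate 3 or DDC replicate 2. With SLC6A4 it exceeded at 12 regions and fell short at 1, the shared region of PSMB8 and PSMB9 (-0.13), where 14.5% of regions exceeded and 14.7% fell short. PSMA7 (0.34, adjusted p = 7.53e-07), PSMB7 (0.31) and PSMC5 (0.12) were among the 12, as was PSMC6 (0.15), where both marks were lower and H3K4me3 by more. Without H3K4me3 empty vector replicate 1 the count was 7. With the GC trend removed it was 27, where 19.1% of all regions exceeded and 9.72% fell short. The PSMB8 and PSMB9 call was lost under median-of-ratios scaling, with DESeq2, and without H3K4me3 empty vector replicate 2, H3K4me3Q5ser empty vector replicate 1 or H3K4me3 SLC6A4 replicate 1 (adjusted p from 0.0534 to 0.102).

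RNA and mark moved together with DDC to a degree like that over all genes. Among the 44 members whose region no other member shares, r between the RNA and H3K4me3Q5ser differences was 0.46 with DDC, against 0.46 over 6982 genes. With SLC6A4 r was 0.15, against 0.19 over 7012 genes. Many of these members' regions also hold the start of another protein-coding gene, such as SS18L1 at PSMA7 and EIF4G1 at PSMD2. The background took only genes with a single region that no other tested protein-coding gene held, so the sets are unlike. Of 19 members whose RNA rose with DDC, 17 had the mark higher, against 55.5% of 564 genes whose RNA rose, and PSMB2 and PSMG3 had it lower. Of 22 members whose RNA did not pass, 11 had it higher, against 37.4% of 5756 genes. Of 21 members whose RNA rose with SLC6A4, 17 had the mark higher, against 68.6% of 720 genes, and PSMB2, PSMC2, PSMC6 and PSMD14 had it lower. PSMD6 and PSMD7, whose RNA fell with SLC6A4, had the mark higher. For DDC against SLC6A4 r was -0.05 over members and 0.05 over 7097 genes.

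**Figure D4:**
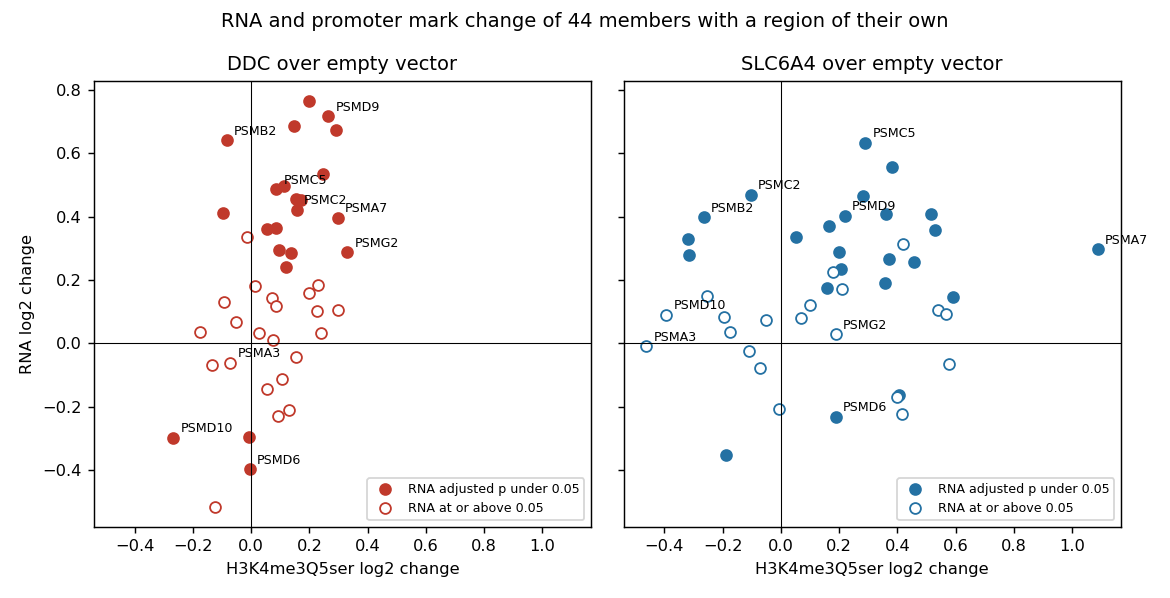
RNA difference (vertical axis, log2) against H3K4me3Q5ser difference (horizontal axis, log2) from empty vector. Points are the 44 members whose region no other member shares, DDC left and SLC6A4 right. Filled points passed the RNA test. With DDC most filled points lie where both are above 0, and with SLC6A4 PSMA7 lies alone at a mark difference of 1.09 with an RNA difference of 0.30.

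The authors' peak lists cover nearly all members. A listed H3K4me3 peak lay within 1000 bp of the start of 47 of the 50 members, all but PSMA8, PSMB11 and PSME1, and a listed H3K4me3Q5ser peak at 48. Among the 48 expressed members these shares were 97.9% and 100.0%, against 85.5% and 93.5% of 11008 expressed protein-coding genes. In CUT&Tag of H3K4me3, the list of peaks called up with SLC6A4 touched 14 expressed members (29.2%), against 17.7% of expressed genes, among them PSMA7, PSMB3, PSMC5 and PSMD2. A peak of the list not called up lay at 40 members (83.3%), against 75.2%. When a peak had to cover the start itself, 28 members kept an H3K4me3 peak, 23 a CUT&Tag peak not called up and 5 one called up.

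CPM values in the deposited CUT&Tag table cover only peaks not called up, so the ratio of SLC6A4 to control is capped near 0.32 on the log2 scale, and with 1 library per group nothing was tested. At 49 peaks near members the median log2 ratio of SLC6A4 to control was 0.22, against 0.10 over 13882 peaks, and 45 were above 0 (91.8%, against 69.3%). With TGM2 knockdown in SLC6A4 cells, the median ratio to SLC6A4 was -0.05, against -0.08 over all peaks, and 31 were below 0 (63.3%, against 72.1%). The lowest was a weak peak at PSMD9, with 3.03 CPM in shTGM2 cells, against 4.07 CPM in SLC6A4 cells (-0.43); the main PSMD9 peak had 34.5 CPM in shTGM2 cells, against 37.8 CPM in SLC6A4 cells (-0.13). PSMB6 had 14.2 CPM in shTGM2 cells, against 17 CPM in SLC6A4 cells (-0.26).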

How the data were processed

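The RNA tables hold, per gene, a normalised signal deposited by the authors: read counts divided by a DESeq2 size factor of the 2 groups in each table. HISAT2 2.1.0, featureCounts, Bowtie2, MACS2 and HOMER on GRCh38 are named in the submitters' processing notes. Dividing by the smallest step of a library returned integers in 100% of cells (tolerance 1e-06), taken as its reads. Of 62703 gene IDs, 62625 matched GENCODE 44, and 20966 genes with no name held 4.65 to 4.98% of reads. The ChIP-seq table holds estimated counts of read pairs per region deposited by the authors, with multiple hits and overlaps shared by fraction, so 9.78% of cells were not whole and were rounded. The CUT&Tag table holds CPM deposited by the authors, and the peak lists hold positions; whether peaks were called per sample or on pooled samples is not given in the sources used here.

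RNA was tested with limma 3.58.1 (R 4.3.3) on log2(value + 1), with an empirical Bayes trend, within a table for each comparison with empty vector and on 1 scale of recovered reads for DDC against SLC6A4. The added 1 shrinks the log2 differences of genes with few reads, so these understate the change. ChIP-seq was tested with edgeR 4.0.16 (quasi-likelihood, TMM, 9 libraries per mark in 1 fit). Adjusted p-values are Benjamini-Hochberg over all features tested, with a threshold of 0.05. Levels per length used the union of exons. Recovered reads were also tested with edgeR and with DESeq2 1.42.0: edgeR with TMM called 1077 genes higher and 1235 lower with DDC, and 1268 and 1326 with SLC6A4, against empty vector. GC trends were removed per library as an alternative chosen after seeing the data, as was the test of input. The fits were tested on simulated data. Intervals and p-values cover the spread between libraries.

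The members, lists and motifs were chosen with earlier results of these data known. Genes named with all values are the catalytic and inducible beta subunits, the activators, and, per comparison, the 4 rises and 4 falls with the smallest adjusted p (3 each way for ChIP-seq); others named were chosen after their values were seen.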

Additional observations from a re-analysis of the deposited data

Results flagged for a closer look

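For 15 members the direct test of DDC against SLC6A4 passed (limma, Benjamini-Hochberg adjusted p under 0.05), so their differences from empty vector differ between the lines. Lower with DDC were PSMD2 (-0.53), PSMD10 (-0.39), PSMD12 (-0.37) and PSMD14 (-0.22), on the log2 scale. Higher with DDC were PSMB9 (0.23), PSMB2 (0.24), PSMG2 (0.26), PSMB4 (0.26), PSMA6 (0.27), PSMD9 (0.31), PSME3 (0.35), PSME1 (0.36), PSMB3 (0.42), PSMG1 (0.54) and PSMD3 (0.98). Over all 13544 genes, 6.47% were higher and 6.74% lower. Among 1423 genes averaging at least 1000 normalised reads, 18.6% were higher and 14.9% lower, and of 37 members there 7 and 4. All 3 DDC libraries lay below all 3 SLC6A4 libraries for the 4 lower genes, as they did in 14.6% of all genes. Of the 15 calls, PSMB2, PSMB4, PSMB9, PSMD14, PSME3 and PSMG2 were lost in 4 to 11 of 17 alternatives. With library size alone as the scale, 6 members were higher and 14 lower, where 569 of 13660 genes were higher and 1429 lower.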

How the results depend on the processing

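Over the RNA members called or named with all values and the named ChIP-seq regions, 1753 alternative values kept their direction and their side of the threshold, 153 kept the direction and no longer passed, 14 newly passed and 14 reversed. Of the RNA calls, 15 of 25 for DDC against empty vector, 19 of 25 for SLC6A4 against empty vector and 9 of 15 for DDC against SLC6A4 held in all alternatives. The reversals of passing values were PSMD10 in H3K4me3Q5ser for DDC relative to input (0.27), PSMC6 (0.11) and PSMD10 (0.20) in H3K4me3Q5ser for SLC6A4 with the GC trend removed, and PSMA2 for DDC against SLC6A4 with the GC trend removed (-0.18). RNA values that did not pass changed sign for PSME2 with DDC (-0.014, library size alone), PSME4 with SLC6A4 (0.032 with the GC trend removed, and -0.15 to 0.10 leaving out 1 library), and, for DDC against SLC6A4, PSMB7 (-0.0059, library size alone), PSMB8 (down to -0.00037), PSMB10 (-0.14 to 0.068) and PSME2 (-0.077 to 0.0195) leaving out 1 library. The cause was not tested. Of the RNA counts, DDC against empty vector ranged from 15 to 20 higher and 2 to 4 lower when 1 library was left out, SLC6A4 from 19 to 23 and 1 to 3, and DDC against SLC6A4 from 6 to 11 and 3 to 8. With library size alone, 6 were lower with DDC than in empty vector, where 1801 of 13045 genes were lower. On that scale 6 were higher and 14 lower with DDC than with SLC6A4, where 569 of 13660 genes were higher and 1429 lower. The count of members higher with DDC than with SLC6A4 was 7 with no filter. GC removal left 1 lower with DDC than in empty vector, where 6.53% of all genes were lower.

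Leaving out 1 library, H3K4me3Q5ser ranged from 27 to 29 higher and 8 to 10 lower with DDC, from 30 to 31 and 13 to 14 with SLC6A4, and from 14 to 16 and 23 to 24 for DDC against SLC6A4. H3K4me3 ranged from 4 to 7 and 2 to 5, from 17 to 23 and 11 to 12, and from 13 to 15 and 16 to 20. The excess of H3K4me3Q5ser over H3K4me3 ranged from 3 to 6 and 0 to 0 with DDC and from 7 to 16 and 0 to 2 with SLC6A4. Relative to input (edgeR), H3K4me3Q5ser with DDC had 3 higher and 0 lower and H3K4me3 had 1 and 0, with no share over all regions given. GC removal gave 4 lower for H3K4me3Q5ser and 6 lower for H3K4me3 with SLC6A4, where 6543 of 19535 and 4255 of 18972 regions were lower. For DDC against SLC6A4 it gave 8 and 6 higher, where 5075 of 19535 and 2965 of 18972 regions were higher. With SLC6A4 it gave 27 in excess, where 3724 of 19529 regions exceeded. DESeq2 gave 2 lower in H3K4me3 with DDC, and DESeq2 and median-of-ratios scaling gave 0 below in excess with SLC6A4. Peaks covering the start itself were at 28 members for H3K4me3, 23 for CUT&Tag peaks not called up and 5 for those called up.

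Same-numbered libraries did not deviate together over all features (r from -0.04 to 0.01 in RNA and from -0.13 to 0.03 in ChIP-seq). Counting noise alone can hold r near 0, so whether replicate numbers pair libraries stays unknown. With a replicate block, 1212 genes rose and 1157 fell with DDC, and these member calls were lost: PSMC4 (adjusted p = 0.0529) and PSMC3IP (adjusted p = 0.0505) with DDC, PSMD7 (adjusted p = 0.0758), PSMD8 (adjusted p = 0.0885) and PSMD11 (adjusted p = 0.0541) with SLC6A4, and PSMB9 and PSMG2 for DDC against SLC6A4. PSME4 and PSMG1 were gained with DDC. Marks relative to input could not be fitted for SLC6A4.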
